A study of Mus musculus with 2 samples.

Results

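A set of 34 genes of brain blood vessels was followed on 2 microarrays of the mouse olfactory bulb, 1 from an odor-enriched mouse and 1 from a control mouse. The genes were taken by name from the probe annotation of the arrays and were carried by 50 of 56605 probes and are 34 of 37074 gene names. Of these, 19 are genes of endothelial identity in most vessels (pan-endothelial genes) and 12 encode transporters or junction proteins of the blood-brain barrier. The remaining 3, Foxq1, Itm2a and Plvap, belong to neither class. Per the labels the odor-enriched mouse was subjected to odor stimulation and the control mouse to standard odor conditions, with no strain, age, sex, odor, duration or number of pooled animals given. Total RNA of the bulb was labelled with Cy3 for both. The labels speak of neurons of the bulb but name no sorting step, and all 34 vessel genes had a probe well above background on both arrays, as had all 6 neuron markers examined.

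Endothelial cells line every vessel and carry a shared set of adhesion molecules, growth factor receptors and transcription factors. In the brain they also form the blood-brain barrier, in which tight junctions seal the space between cells and transporters carry glucose, amino acids, lipids and hormones inward and drugs outward. Most barrier genes are less restricted to endothelium than the identity genes: glucose and amino acid transporters and junction scaffolds are made by other brain cells and by epithelia as well.

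Each group had a single array and no replicate, so no test between the groups could be made and each difference describes these 2 samples. Both arrays lay on 1 slide. The 75th percentile of the probe signals was 7.66 log2 units on the odor-enriched array and 7.97 log2 units on the control array, over a median local background of 22 units (odor enriched) and 17 units (control) before logarithms, and no spot was saturated. Each level below is a relative signal, the background-subtracted signal divided by that percentile (for several probes of a gene, their geometric mean), and each difference is odor enriched minus control on the log2 scale of the relative signal. For probes with 10 or more spots, single spots varied in their difference with a pooled SD of 0.05, and different probes of a gene with a pooled SD of 0.63. Neither contains the spread between mice. The 8 E1A spike-in probes measured on both arrays differed by a median of 1.45 log2 units before scaling, with a range of 1.22 to 4.42. Scaling on them would lower every difference, and the median of all genes, by 1.76. Directions therefore refer to the bulk of the genes on the same array.

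Relative to the other genes of each array, most vessel genes were higher in the odor-enriched mouse. Of the 34 genes, 23 were higher by 2-fold or more and 1 was lower by 2-fold or more. The same held for 11.5% (higher) and 5.52% (lower) of the 23872 genes with a probe above background on both arrays. The median difference was 1.62 over the 34 genes and 0.00 over all genes. With E1A scaling the median of the 34 genes was -0.14, against -1.76 for all genes. At 1.5-fold 28 of the 34 genes were higher and 2 lower, against 21.2% and 16.3% of all genes, and at 3-fold 17 were higher and 0 lower, against 5.39% and 1.38%. With normexp 21 were higher by 2-fold or more and 0 lower, against 4.93% and 2.14% of all genes, and with the series matrix values 27 and 0, against 18.7% and 2.44%. With E1A scaling 1 was higher and 8 were lower by 2-fold or more, against 1.57% and 83.7%. In bulk RNA a change in the number of endothelial cells and a change in RNA per cell cannot be told apart.

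**Figure D1:**
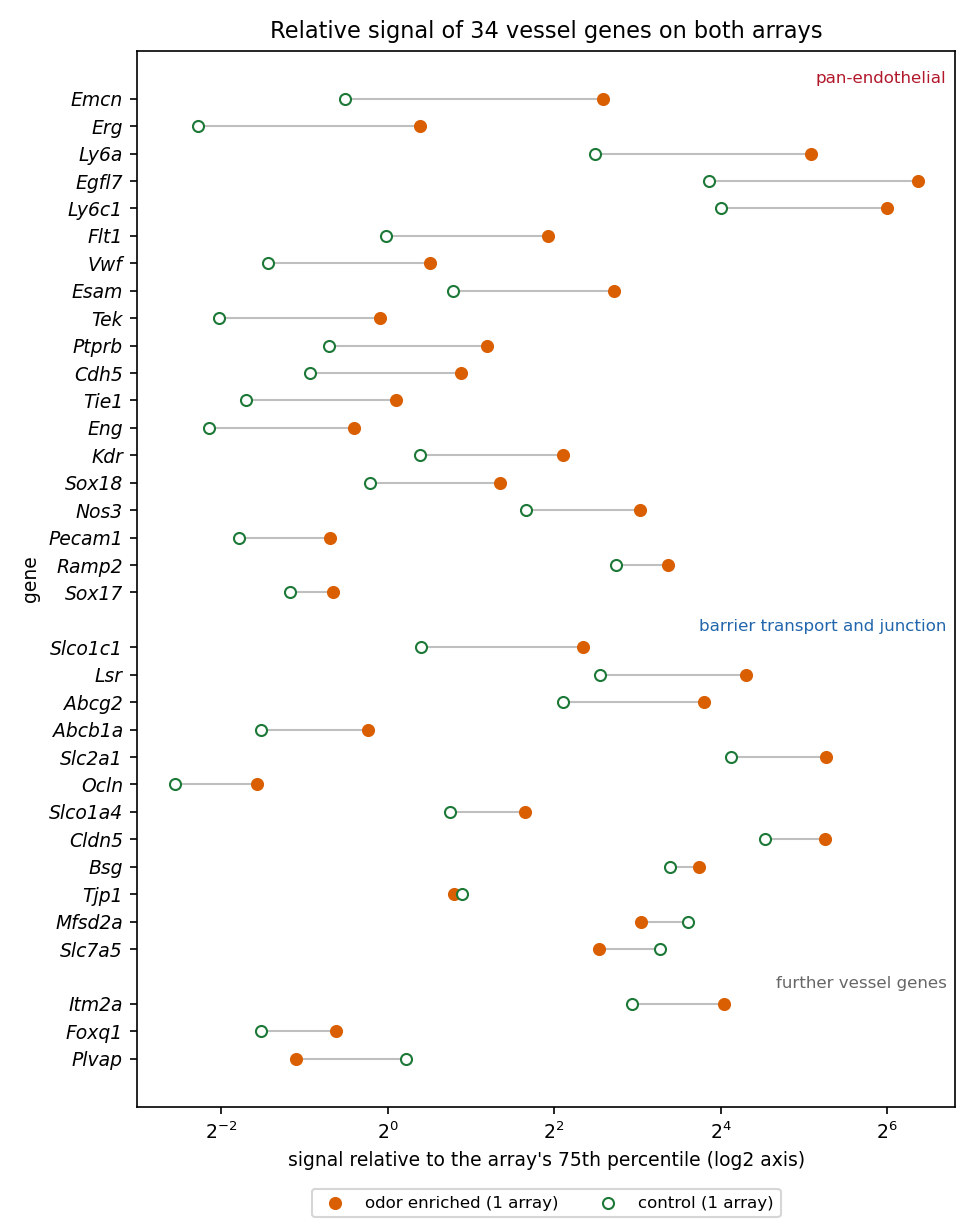
Relative signal of the 34 vessel genes in the odor-enriched sample (filled) and the control sample (open), as a multiple of the array's 75th percentile on a log2 axis, with genes ordered by their difference within each class. The odor-enriched value is the higher in 30 of 34 genes, and Tjp1, Mfsd2a, Slc7a5 and Plvap are the exceptions. With E1A scaling only 13 of 34 stay higher.

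All 19 pan-endothelial genes had a positive difference, and 17 of them were higher by 2-fold or more in the odor-enriched sample. Their median was 1.89, with a range of 0.51 to 3.10, and it was 0.13 with E1A scaling. Receptors of vascular growth factors differed by similar amounts. Kdr, the main signalling receptor for VEGF, had a relative signal of 4.30 in the odor-enriched sample and 1.32 in the control sample, a difference of 1.71. Flt1, the receptor that also acts as a VEGF decoy, stood at 3.81 in the odor-enriched sample and 0.984 in the control sample as the geometric mean of 4 probes. All 4 probes were higher, by 1.61 to 2.19. The other 2 Kdr probes were not above background on either array.

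Angiopoietin signalling, which keeps vessels quiescent and tight, was represented by 3 genes. The receptor Tek had 0.940 in the odor-enriched sample and 0.247 in the control sample, a difference of 1.93. Its partner receptor Tie1 differed by 1.80 (1.07 in odor enriched, 0.307 in control). Ptprb, a phosphatase that restrains Tek, differed by 1.89, with 2.28 in the odor-enriched sample and 0.616 in the control sample. These 3 genes and both VEGF receptors thus lay between 1.71 and 1.95.

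Eng, a co-receptor for TGF-beta family ligands, had 0.755 in the odor-enriched sample and 0.227 in the control sample, a difference of 1.74. Ramp2 stood apart from the other receptors. It encodes the subunit that turns the calcitonin-like receptor into a receptor for adrenomedullin, and its relative signal was 10.3 in the odor-enriched sample and 6.72 in the control sample. Its difference of 0.62 was less than 2-fold, with probes at 0.48 and 0.75.

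Adhesion and surface genes were all higher by 2-fold or more, 6 of 6, with a median of 1.97. Emcn, a sialomucin of capillary and venous endothelium, had the largest difference of the 34 genes at 3.10. Its signal was 1215 units on the odor-enriched array and 175.8 units on the control array, which is a relative signal of 6.03 in the odor-enriched sample and 0.703 in the control sample. The 60-base probe behind this value lies at chr3:137093811-137093870 on the plus strand (mm9). It is shown because the largest difference rests on it alone.
Emcn probe: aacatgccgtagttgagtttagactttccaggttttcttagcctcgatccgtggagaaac

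Cdh5, the cadherin of endothelial junctions, differed by 1.80, with 1.84 in the odor-enriched sample and 0.527 in the control sample. Esam, an immunoglobulin-like adhesion molecule of the same junctions, differed by 1.93 (6.60 in odor enriched, 1.73 in control). Pecam1, the classical marker CD31, was nearer to the 2-fold line. Its single probe had 0.617 in the odor-enriched sample and 0.290 in the control sample, a difference of 1.09 that was 0.91 with centring on the array median and 0.66 with normexp.

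Ly6a and Ly6c1 encode small membrane-anchored surface proteins of brain endothelium that lymphocytes and, for Ly6c1, monocytes can carry too. Ly6a had 33.8 in the odor-enriched sample and 5.64 in the control sample, a difference of 2.59. Ly6c1 had 64.1 in the odor-enriched sample and 16.0 in the control sample over 2 probes, which is 4.01-fold higher. The brighter is nearly identical to the probe of Ly6c2, a gene of the same family known from monocytes. The pair is printed with the differing bases in capitals, counted from the 5′ end.
Ly6c1 probe at chr15:74875495-74875554, minus strand, mm9: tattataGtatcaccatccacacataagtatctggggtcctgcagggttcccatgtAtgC
Ly6c2 probe at chr15:74938637-74938695, minus strand, mm9: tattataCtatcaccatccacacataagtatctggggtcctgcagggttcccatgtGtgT
From Ly6c1 to Ly6c2 the substitutions are G8C, A57G and C60T, and 57 of 60 positions are the same. The Ly6c1 probe gave 135.7 in the odor-enriched sample and 38.2 in the control sample, and the Ly6c2 probe gave 139 in the odor-enriched sample and 37.0 in the control sample. Signal from the 2 transcripts cannot be told apart at these probes. The second Ly6c1 probe, which shares no run of 25 bases with another gene's probe, gave 30.3 in the odor-enriched sample and 6.71 in the control sample, a difference of 2.18. Of the 50 probes, the brighter Ly6c1 probe was the only 1 that shared such a run. Only probes of the array were compared, and matches to transcripts of other genes were not examined. Without Ly6a and Ly6c1 the pan-endothelial median was 1.80.

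Secreted proteins and enzymes followed, with 3 of 3 higher by 2-fold or more. Egfl7, a secreted factor of vessel tube formation, had 82.4 in the odor-enriched sample and 14.6 in the control sample, a difference of 2.50. Vwf, the clotting factor stored in endothelial granules, had 1.42 in the odor-enriched sample and 0.370 in the control sample, and its 3 probes differed by 1.63 to 2.43. Nos3, the endothelial nitric oxide synthase, differed by 1.38 (8.19 in odor enriched, 3.16 in control).

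Transcription factors diverged among themselves. Erg, an ETS-family factor that maintains endothelial identity, had 1.31 in the odor-enriched sample and 0.207 in the control sample, a difference of 2.66. Sox18, a SoxF factor of vessel development, differed by 1.56 (2.55 in odor enriched, 0.867 in control). Its relative Sox17, known from arteries, had the smallest difference of the class at 0.51, and its probes disagreed in sign. The 3 Sox17 probes are printed since the gene's direction depends on which is read.
Sox17 probe at chr1:4481890-4481949, minus strand, mm9: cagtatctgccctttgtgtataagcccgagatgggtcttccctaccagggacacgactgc
Sox17 probe at chr1:4482700-4483190, minus strand, mm9: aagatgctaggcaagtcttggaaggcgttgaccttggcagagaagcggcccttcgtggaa
Sox17-named probe at chr1:4487611-4487670, plus strand, mm9: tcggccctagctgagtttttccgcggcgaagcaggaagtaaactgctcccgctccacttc
The first and brightest of them gave 2.84 in the odor-enriched sample and 3.71 in the control sample, a difference of -0.39. The second, whose 60 bases span 491 bases of the genome, gave 0.142 in the odor-enriched sample and 0.054 in the control sample, a difference of 1.41. The third lies on the opposite strand and was well above background in the control sample alone, so it was not used. Taking the brightest probe turned the sign of Sox17.

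The barrier genes were spread more widely. Their median difference was 0.95, and -0.81 with E1A scaling, with a range of -0.74 to 1.94. Of the 12 genes 5 were higher by 2-fold or more in the odor-enriched sample, 0 were lower by 2-fold or more and 9 had a positive difference. Among all genes 11.5% were higher and 5.52% lower by 2-fold or more, and 50.1% had a positive difference. The series matrix values put 8 of the 12 higher by 2-fold or more, against 18.7% of all genes. With E1A scaling 0 were higher and 5 lower by 2-fold or more, against 1.57% and 83.7% of all genes. In that setting 1 of the 12 had a positive difference, and the median of all genes was -1.76.

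Of the 4 junction genes, 1 passed 2-fold. Lsr, a protein of the corners where 3 cells meet, differed by 1.75, with 19.8 in the odor-enriched sample and 5.86 in the control sample. Cldn5, the main claudin of brain endothelium, had 38.0 in the odor-enriched sample and 23.2 in the control sample, a difference of 0.71. Ocln, another membrane protein of tight junctions, lay at the 2-fold line with 0.99 (0.339 in odor enriched, 0.170 in control). Tjp1, the scaffold ZO-1, had 1.74 in the odor-enriched sample and 1.86 in the control sample, a difference of -0.10 that turned positive with cyclic loess, with the series matrix values and with the brightest probe. Its probes disagreed in sign, and they are printed for that reason.
Tjp1 probe at chr7:72441703-72441762, minus strand, mm9: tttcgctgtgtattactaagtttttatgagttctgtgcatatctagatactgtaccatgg
Tjp1 probe at chr7:72441126-72441185, minus strand, mm9: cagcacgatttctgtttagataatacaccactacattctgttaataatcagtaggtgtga
The first gave 0.551 in the odor-enriched sample and 0.915 in the control sample, a difference of -0.73. The second gave 5.48 in the odor-enriched sample and 3.77 in the control sample, a difference of 0.54.

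Of the 8 transport genes, 4 passed 2-fold. Both drug efflux pumps passed 2-fold. Abcg2 had 14.0 in the odor-enriched sample and 4.32 in the control sample, a difference of 1.69. Abcb1a, the P-glycoprotein gene, had 0.850 in the odor-enriched sample and 0.348 in the control sample, a difference of 1.29 that was 0.71 with normexp. The organic anion carriers were higher too. Slco1c1, which carries thyroxine, had 5.09 in the odor-enriched sample and 1.32 in the control sample, a difference of 1.94 with probes at 1.74 and 2.15. Slco1a4, a carrier of bile salts and drugs, differed by 0.90 (3.15 in odor enriched, 1.69 in control).

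Nutrient transporters differed in sign. Slc2a1, the glucose transporter GLUT1, had 38.5 in the odor-enriched sample and 17.5 in the control sample, a difference of 1.14 that was 0.96 with centring on the array median. Bsg, the chaperone of lactate transporters, differed by 0.35 (13.4 in odor enriched, 10.5 in control). Slc7a5, the large neutral amino acid transporter LAT1, had 5.79 in the odor-enriched sample and 9.64 in the control sample, a difference of -0.74. Mfsd2a, the carrier of lysophospholipid-bound omega-3 fatty acid that also limits transcytosis in brain endothelium, had 8.22 in the odor-enriched sample and 12.1 in the control sample, a difference of -0.56. Both kept a negative difference under every alternative run, between -0.91 and -0.40 for Slc7a5 and between -0.74 and -0.23 for Mfsd2a apart from E1A scaling, which gave -2.50 and -2.33. The Mfsd2a value rests on the following probe, at chr4:122624182-122624241 on the minus strand (mm9).
Mfsd2a probe: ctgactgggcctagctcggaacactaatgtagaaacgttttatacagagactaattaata

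Of the 3 genes outside both classes, Itm2a, a membrane protein enriched in brain endothelium, had 16.4 in the odor-enriched sample and 7.65 in the control sample, a difference of 1.10 that was 0.93 with centring on the array median. Foxq1, a forkhead factor of brain endothelium, differed by 0.89 (0.651 in odor enriched, 0.350 in control). Plvap forms the diaphragms of fenestrated and immature vessels and is scarce in vessels with a mature barrier. It was the only gene of the 34 lower by 2-fold or more, with 0.467 in the odor-enriched sample and 1.17 in the control sample, a difference of -1.32. That difference was -0.94 with normexp and -0.99 with the series matrix values, each just under 2-fold. In signal units Plvap had 94.1 on the odor-enriched array and 291.6 on the control array, at chr8:74021877-74021936 on the minus strand (mm9).
Plvap probe: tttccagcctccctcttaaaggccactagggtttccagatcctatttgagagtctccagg

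**Figure D2:**
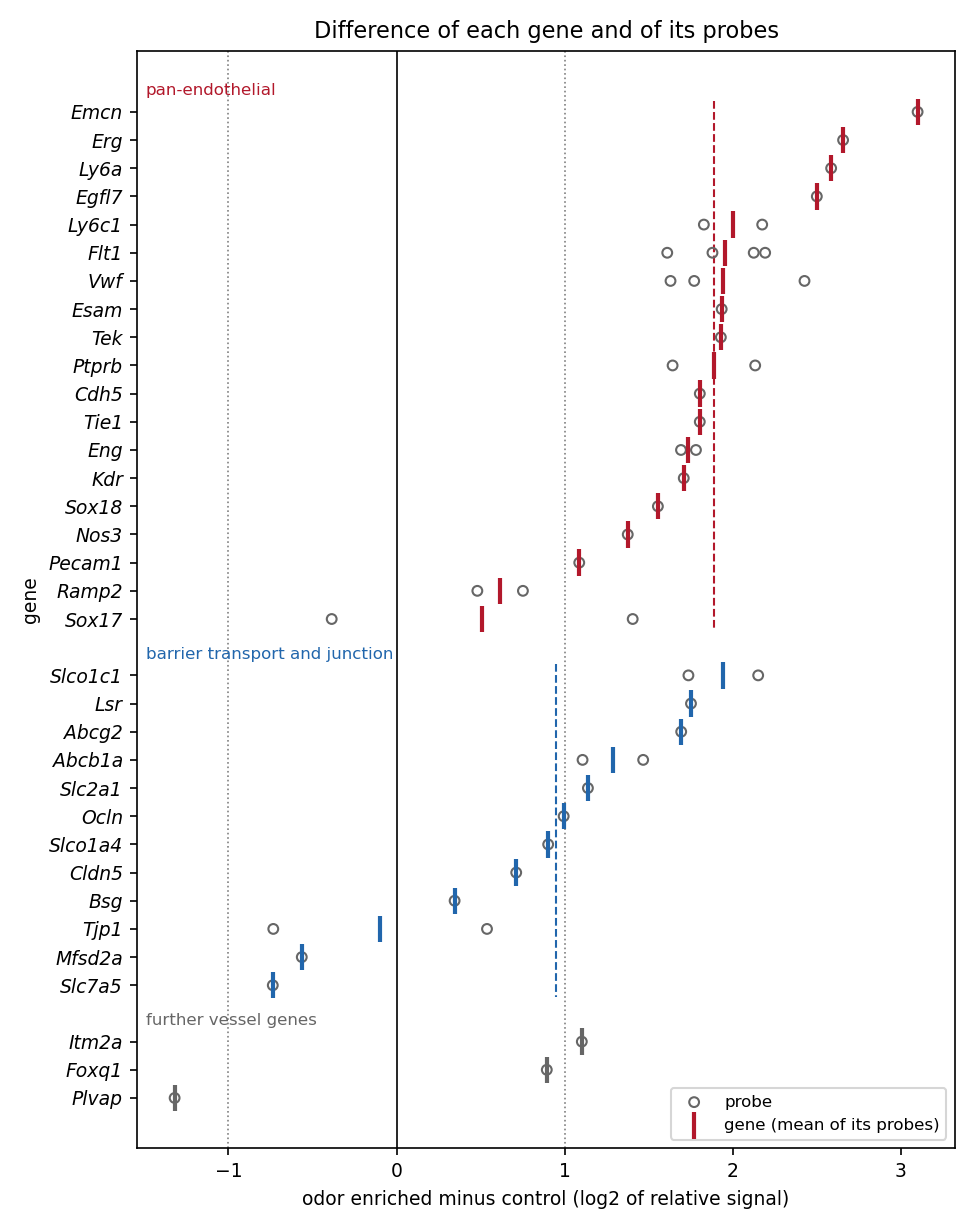
Difference (odor enriched minus control, log2 of relative signal) of each gene (bar) and of each of its probes above background on both arrays (circle), with dashed lines at the class medians of 1.89 and 0.95 and dotted lines at 2-fold. The pan-endothelial genes lie to the right of most barrier genes, and the probes of Sox17 and Tjp1 fall on both sides of 0. With E1A scaling every value moves left by 1.76.

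Set beside each other, the pan-endothelial median exceeded the barrier median by 0.94 log2 units. The middle of the pan-endothelial genes was narrow, from 1.63 at the 25th percentile to 1.98 at the 75th, whereas the barrier genes ran from 0.23 to 1.39 between the same percentiles. The classes overlapped: 1 barrier gene, Slco1c1, lay above the pan-endothelial median, and 2 pan-endothelial genes, Ramp2 and Sox17, lay below the barrier median. No fewer than 4 barrier genes (Tjp1, Mfsd2a, Slc7a5 and Bsg) lay below the lowest pan-endothelial gene. Restricting the barrier class to Cldn5, Slco1a4, Slco1c1, Abcb1a and Mfsd2a, chosen as the members most restricted to brain endothelium, gave a median of 0.90. The gap between the classes does not depend on the scaling constant and stayed between 0.86 and 0.99 under the alternatives run, except for normexp with 0.63. With E1A scaling it was 0.94. With 1 array per group the gap was not tested. The classes also differed in brightness. Control relative signals summed to 54.9 over the 19 pan-endothelial genes and 88.6 over the 12 barrier genes. Genes of at least median signal had a median difference of -0.13, against 0.00 for all genes. The part of signal level in the gap was not tested.

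**Figure D3:**
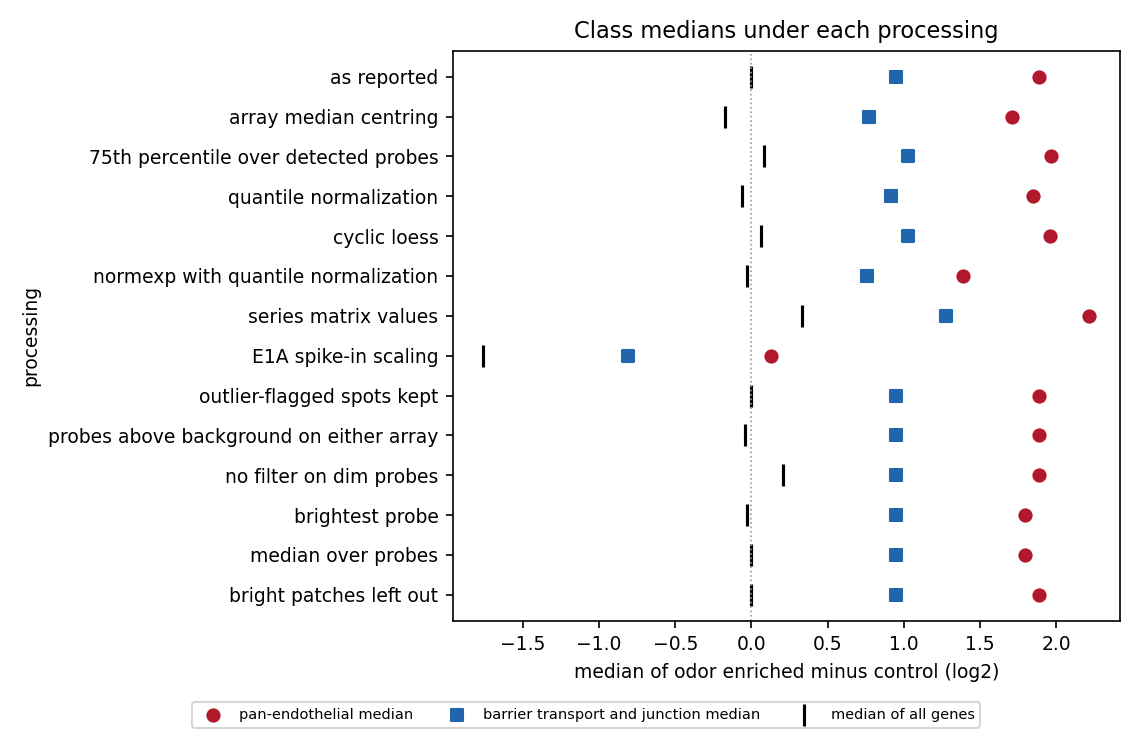
Median difference of the pan-endothelial genes (circles), the barrier genes (squares) and all measured genes (bars) under each processing alternative, in log2 units of odor enriched minus control. The pan-endothelial median lies to the right of the barrier median in every setting, while E1A scaling shifts all 3 and turns the barrier median to -0.81.

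Probes of a gene mostly gave the same direction. Of the 34 genes 10 had more than 1 probe above background on both arrays, and in 8 of these all probes had the same sign. In 7 of the 10 the brightest probe gave the smallest difference, as in Vwf, Ptprb and Abcb1a. Most of the 10 had only 2 such probes, and the share among all genes was not computed. Of the 47 probes above background on both arrays, 42 had a positive difference. Several of these probes share a gene, and the share among all probes was not computed. Over all genes, 50.1% had a positive difference. The spots surrounding each of the 50 probes had a median difference between -0.22 and 0.55, and none of these medians passed 1.2. The highest surrounded the Tjp1 probe that differed by 0.54, with 0.55, the Abcg2 probe, with 0.51, and the Cldn5 probe that differed by 0.71, with 0.49. The part of the surroundings in these differences was not tested.

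Promoter sequences from RefSeq (GRCm38.p6, 250 bases before to 50 bases after the start) were at hand for 20 of the 34 genes, with 28 starts. The letters AGGAAG, the core that ETS factors such as Erg prefer, were searched on both strands (CTTCCT on the other). They occurred in 8 of 14 pan-endothelial promoters (57.1%), 6 of 13 barrier promoters (46.2%) and 35.4% of all 32851 promoters in the table. These counts are of starts, and several starts can belong to 1 gene with overlapping windows. Counted by gene, the letters occurred in 7 of 9 pan-endothelial genes, 4 of 10 barrier genes and 10383 of all 27025 genes. ACAAAG, a sequence bound by Sox factors, searched with CTTTGT, occurred in 4 of 14 pan-endothelial and 2 of 13 barrier promoters, against 18.7% of all. ATCAAAG, the site of the Wnt effectors TCF and LEF, searched with CTTTGAT and holding no full copy of the Sox letters, occurred in 1 of 14 and 0 of 13, against 3.73% of all. TGACTCA, the site of AP-1 transcription factors, searched with TGAGTCA, occurred in 0 of 14 and 1 of 13, against 5.2% of all. Such matches are a description of these windows and not binding sites. The promoters of Emcn, with the largest difference, and of Cldn5 and Mfsd2a, with small or negative ones, are printed with AGGAAG and CTTCCT in capitals.
Emcn promoter, chr3:137340828-137341127, plus strand: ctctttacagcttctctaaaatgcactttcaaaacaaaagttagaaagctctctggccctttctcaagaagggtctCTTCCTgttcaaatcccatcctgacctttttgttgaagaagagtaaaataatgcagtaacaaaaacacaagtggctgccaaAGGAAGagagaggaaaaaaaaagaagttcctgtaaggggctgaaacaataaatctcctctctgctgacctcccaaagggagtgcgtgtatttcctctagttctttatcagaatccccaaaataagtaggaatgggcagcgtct
Cldn5 promoter, chr16:18776597-18776896, plus strand: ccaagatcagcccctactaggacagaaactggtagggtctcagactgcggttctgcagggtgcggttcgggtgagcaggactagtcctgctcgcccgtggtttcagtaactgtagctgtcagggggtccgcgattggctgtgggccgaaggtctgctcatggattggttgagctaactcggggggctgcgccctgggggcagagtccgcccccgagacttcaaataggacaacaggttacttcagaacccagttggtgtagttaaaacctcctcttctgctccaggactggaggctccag
Mfsd2a promoter, chr4:122961139-122961438, minus strand: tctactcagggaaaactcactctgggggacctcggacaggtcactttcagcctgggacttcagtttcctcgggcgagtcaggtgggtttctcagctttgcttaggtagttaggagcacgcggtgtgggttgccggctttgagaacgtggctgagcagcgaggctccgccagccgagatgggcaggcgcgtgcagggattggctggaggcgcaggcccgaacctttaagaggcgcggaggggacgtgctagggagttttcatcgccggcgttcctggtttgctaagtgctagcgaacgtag
The Emcn window held 2 copies, and the Cldn5 and Mfsd2a windows held 0. The window at the most upstream of 3 starts of Erg, whose difference was 2.66, also held 0 copies. These windows are examples, and a relation of copies to differences was not tested.

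For the lists and markers that follow, the shares over all genes were 11.5% higher and 5.52% lower by 2-fold or more. Of 20 other endothelial genes, outside the 34, 16 were higher by 2-fold or more and 0 lower in the odor-enriched sample, with a median of 1.65. The highest were Gimap4, a GTPase that lymphocytes also make (4.34), and the adhesion molecule Icam2 (3.28). The lowest were the lipase anchor Gpihbp1 (0.00) and the sphingosine phosphate receptor S1pr1 (0.26).

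Of 17 other barrier genes, most but not all of them transporters, 5 were higher by 2-fold or more and 0 lower, with a median of 0.68. Slc38a5, a glutamine transporter, stood at 2.25 and Slc19a3, a thiamine transporter, at 2.22, whereas the lactate transporter Slc16a1 stood at -0.44 and the proteoglycan Spock2 at -0.41. Further junction genes centred near 0, with a median of -0.09 that turned positive with the series matrix values. Of 14 measured, 2 were higher by 2-fold or more, the tricellulin gene Marveld2 (2.06) and F11r (1.51), and 1 was lower, Jam3 (-1.14), with Tjp3 next at -0.97. These counts are near the shares over all genes, 11.5% and 5.52%. Cldn3 was detected above background in the control sample alone.

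Genes of the Wnt pathway that induces the barrier also centred near 0. Of 15 genes 1 was higher by 2-fold or more and 1 lower, with a median of 0.02 that turned negative with median centring, quantile normalization and the brightest probe. The receptor Fzd4 (1.47) and the nuclear effector Lef1 (0.50) were highest. The co-receptor Adgra2 was lowest at -1.21, and the ligand Wnt7a followed at -0.83.

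Among growth factors and tip cell genes 7 of 14 were higher by 2-fold or more and 0 lower, and the median was 1.15. The Notch ligand Dll4 (2.20) and the apelin receptor Aplnr (2.06) were highest, and Vegfb (-0.67) and Pgf (-0.57) lowest. Dll4 and Aplnr were dim, with relative signals in the control sample of 0.035 and 0.031. Among endothelial activation genes 6 of 13 were higher by 2-fold or more and 1 lower, and the median was 0.80. The sterol hydroxylase Ch25h (3.64) and the leukocyte adhesion molecule Vcam1 (2.99) were highest, and the homing molecule Madcam1 (-1.60) and the clotting initiator F3 (-0.67) lowest. Sele, an adhesion molecule of inflamed endothelium, was detected above background in the odor-enriched sample alone. Apart from E1A scaling, these 2 medians stayed positive under every alternative run. The lowest values were 0.59 for growth factors and tip cell genes and 0.56 for activation genes.

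**Figure D4:**
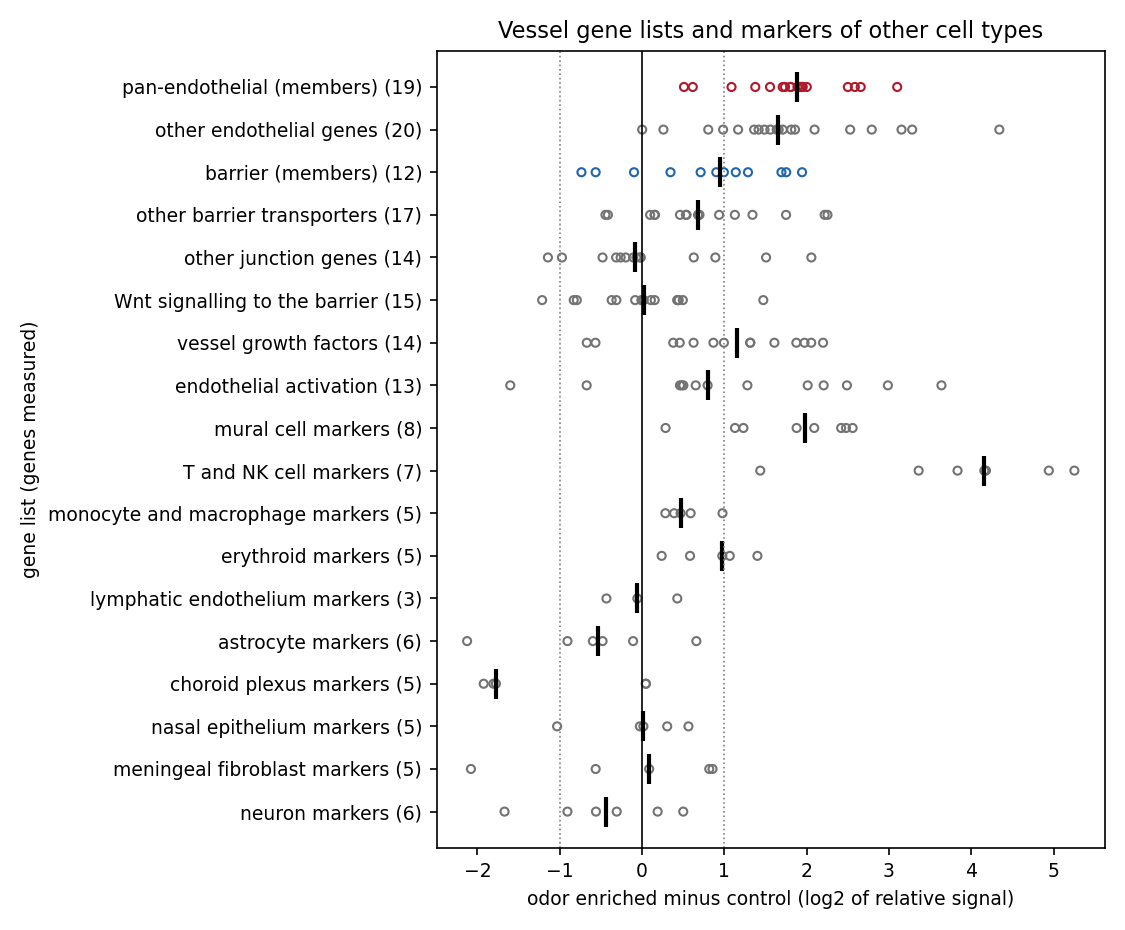
Difference of every measured gene (circles) and the median (bar) of the vessel gene lists and of markers of other cell types, in log2 units of odor enriched minus control, with dotted lines at 2-fold and the number of genes measured in parentheses. The genes of the pan-endothelial, mural, T and NK, monocyte and macrophage and erythroid lists all lie to the right of 0. Other endothelial genes lie at 0 or to its right. The list of other barrier transporters also holds a few genes of other kinds. The medians of the choroid plexus, astrocyte, neuron, lymphatic and other junction lists lie to the left of 0. With E1A scaling only the pan-endothelial, mural and T and NK medians stay above 0.

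Markers of other cells of the tissue differed between the same 2 samples. Mural cell markers, of pericytes and vascular smooth muscle, had 7 of 8 genes higher by 2-fold or more, and their relative signals summed to 42.8 in the odor-enriched sample and 10.3 in the control sample. Kcnj8 (2.56) and Myh11 (2.48) were highest and Abcc9 (1.13) and Pdgfrb (0.29) lowest. T and NK cell markers had 7 of 7 higher by 2-fold or more and summed to 19.6 in the odor-enriched sample and 1.198 in the control sample, from Cd8b1 (5.25) and Nkg7 (4.94) to Cd8a (3.36) and Cd3e (1.44). Erythroid markers summed to 1227 in the odor-enriched sample and 577 in the control sample, with 2 of 5 higher by 2-fold or more, Hbb-b1 (1.40) and Hba-a1 (1.07), and Slc4a1 (0.24) lowest. Monocyte and macrophage markers had 0 of 5 past 2-fold and summed to 26.5 in the odor-enriched sample and 20.7 in the control sample, with Ccr2 (0.98) and Mrc1 (0.59) highest and Cd68 (0.39) and Csf1r (0.28) lowest. Their part in the differences of the vessel genes was not tested.

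Markers of epithelia, astrocytes, neurons, fibroblasts and lymphatic vessels were summed in the same way. Choroid plexus markers had 3 of 5 lower by 2-fold or more and summed to 5.53 in the odor-enriched sample and 18.9 in the control sample, with Kcnj13 (-1.92) and Aqp1 (-1.81) lowest and Kl and Folr1 (0.05 each) highest. Of 7 nasal and glandular epithelium markers, 5 were measured on both arrays and summed to 1.24 in the odor-enriched sample and 1.30 in the control sample. Krt5 (0.56) and Krt18 (0.31) were highest and Bpifa1 (-0.03) and Cdh1 (-1.03) lowest, and Krt8 and Epcam were detected above background in the control sample alone. Astrocyte markers summed to 39.8 in the odor-enriched sample and 54.6 in the control sample, and had a median difference of -0.54. Gfap (-2.13) and Aldh1l1 (-0.91) were lowest, while the endfoot water channel Aqp4 (0.66) and Slc1a2 (-0.11) were highest. Neuron markers summed to 18.4 in the odor-enriched sample and 22.9 in the control sample, and had a median difference of -0.43. Slc17a7 (-1.67) and Rbfox3 (-0.91) were lowest, and Syt1 (0.50) and Tubb3 (0.19) highest. Meningeal fibroblast markers summed to 18.0 in the odor-enriched sample and 25.4 in the control sample, but 3 of 5 had a positive difference. Lum (0.86) and Col1a1 (0.82) were highest and Fmod (-2.08) and Dcn (-0.56) lowest, and the median of 0.09 turned negative with centring on the array median and with both looser filters on dim probes. Lymphatic endothelial markers summed to 11.03 in the odor-enriched sample and 14.5 in the control sample over 3 of 4 genes, Prox1 (0.43), Lyve1 (-0.06) and Pdpn (-0.43), and Flt4 was detected above background in the odor-enriched sample alone.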

How the data were processed

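The data were 1 Agilent mouse expression array per group. Per the file headers, Agilent Feature Extraction 11.5.1.1 made the deposited processed signal, a spot intensity from which background was subtracted and spatial trends removed. No scaling between the arrays is recorded there. The deposited series matrix is on a log2 scale: it equals the log2 processed signal less a constant for each array (13.82 for odor enriched, 14.46 for control), whose origin is not given, and was used as an alternative. Coordinates (mm9) were read from the files.

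Spots flagged as outliers (183 on the odor-enriched and 122 on the control array) were left out, the log2 signals of a probe's spots were averaged and the array's 75th percentile subtracted. Genes were given the mean over their probes that were well above background on each of the arrays, which gave 23872 genes. No p-value was computed. Counts use a 2-fold threshold. Of the 50 member probes 39 carry a RefSeq accession, and all 39 matched the same symbol in the RefSeq table of GRCm38.p6.

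All 34 members are named, and of each other list the 2 highest and 2 lowest genes measured on both arrays, apart from 1 that is not reported here. Genes of those lists named as above background on 1 array, and Ly6c2, named for its probe, were added after their values were seen. Members, lists and alternatives were chosen with earlier results of these arrays known. The alternatives were other centring, quantile, loess, normexp (offset 50), series matrix and E1A scaling, other probe filters and summaries, fold thresholds and class membership. A patch spot was one where the surrounding 9 by 5 spots had a median difference over 1.2. The steps were run with Python 3.11.15 (numpy 2.4.6, pandas 2.3.3, matplotlib 3.10.9) and R 4.3.3 (limma 3.58.1). The code was tested on simulated data with known changes. Those data held no spread between mice and less noise than the spread between probes of a gene. The test thus checks the code and not the differences reported.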

Additional observations from a re-analysis of the deposited data

How the results depend on the processing

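No paired analysis was possible because each group has a single array, and for the same reason no replicate could be left out. Of 74 recomputed class medians, gaps and member counts, 60 stayed within the technical spread (1.5 times for counts). The spread was the SD of 0.63 between probes of a gene, divided by the square root of the number of genes for a median. The pan-endothelial median was 1.71 with centring on the array median, 1.39 with normexp, 2.22 with the series matrix values and 0.13 with E1A scaling. The barrier median was 0.76 with normexp, 1.28 with the series matrix values and -0.81 with E1A scaling, and the gap between the medians was 0.63 with normexp. The count of members at least 2-fold higher was 1 with E1A scaling and from 20 to 27 under the other alternatives. At 1.5-fold 28 were higher and at 3-fold 17. The count at least 2-fold lower was 0 with normexp, with the series matrix values and at 3-fold, 2 at 1.5-fold and 8 with E1A scaling. These settings moved the median of all genes by -0.17 (median centring), 0.33 (series matrix), 0.21 (no filter on dim probes) and -1.76 (E1A). Of the 30 positive members E1A scaling left 13 positive. Among those past 2-fold it turned Kdr (-0.05), Eng (-0.03), Pecam1 (-0.68), Nos3 (-0.39), Sox18 (-0.21), Lsr (-0.01), Abcb1a (-0.48), Abcg2 (-0.07), Slc2a1 (-0.62) and Itm2a (-0.66) negative, and among the others Ramp2 (-1.15), Sox17 (-1.25), Cldn5 (-1.05), Ocln (-0.77), Slco1a4 (-0.86), Bsg (-1.42) and Foxq1 (-0.87). Of 408 other values of single members 8 moved beyond 0.63 and 0 members past 2-fold changed sign. Normexp, whose offset shrinks differences of dim probes, gave 1.09 for Vwf and 1.05 for Tie1.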

Other observations

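The Ly6 family beyond the vessel genes holds further surface proteins related to Ly6a and Ly6c1. Of 6 other Ly6 genes, 4 were higher by 2-fold or more in the odor-enriched sample and 0 lower, with a median of 1.54. Over all genes 11.5% were higher and 5.52% lower. Ly6g, known from neutrophils, differed by 3.03 (2.24 in odor enriched, 0.275 in control) and Ly6d by 2.22 (0.11 in odor enriched, 0.024 in control). Ly6k (0.39) and the neuronal Ly6h (-0.07) were lowest.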
